A study of Equus caballus with 6 samples.

Results

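The deep zone of adult horse articular cartilage was set against the transient cartilage of the horse embryo, with 1 array for each tissue. These were 2 of the 6 arrays of the series, and 1344 of 13691 named genes were well above background on both of them. The adult sample came from the stifle of an animal aged 15 years and covered 50 to 90% of the depth from the joint surface to the tidemark. The embryonic sample came from a hindlimb at gestational day 40 and is labelled as transient embryonic cartilage. Both tissues were cut out of cresyl violet-stained sections of 10 µm by laser capture microdissection, a method that lifts selected cells from a section. The total RNA was amplified by a global PCR protocol (SuperAmp) and hybridised to a 1-colour array, as were the other 4 arrays of the series, which held the middle and superficial adult zones and the outer and intermediate interzones of the embryonic joint. The number of animals behind each sample is not given in the sources used here, and the animal, the stage, the slide and the tissue cannot be told apart in this comparison.

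Articular cartilage covers the ends of bones for life, and the chondrocytes of its deep zone lie above the calcified layer. Transient cartilage is the embryonic template of a bone, and it is later replaced by bone. In both, chondrocytes surround themselves with fibrils of collagen II, joined by collagens IX and XI, and with aggregates of aggrecan bound to hyaluronan by link protein. Cartilage oligomeric matrix protein (COMP) and other bridging proteins tie these networks together.

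The labelled tissue was checked with COMP, ACAN (aggrecan), COL11A1 (a chain of collagen XI) and COL2A1 (collagen II). Of these 4 cartilage markers, COMP, ACAN and COL11A1 were well above background on both arrays. COL2A1 was well above background on the transient cartilage array, and none of its 6 probes was so on the deep-zone array, so the cartilage label of the adult sample rests on the other markers. The array sequences are shown because the value of a marker can depend on which stretch of its transcript the probe reads. The stretch changed detection for ACAN and COL11A1 and the size of the difference for COMP, while the 6 COL2A1 probes agreed in detection. Apart from the probe at base 216, the COL2A1 probes start at bases 4486 to 4490 and so read 1 stretch. Each sequence shown is a probe of 60 bases from the deposited array files, 5′ to 3′, named by the base at which it starts in its target transcript. Capitals mark GGN triplets that recur every 9 bases, of which each marked probe holds 6; GGN encodes glycine, whose regular return is the repeat of the collagen triple helix.
COMP probe at base 1549: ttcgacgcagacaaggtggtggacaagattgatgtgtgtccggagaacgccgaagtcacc
COMP probe at base 2198: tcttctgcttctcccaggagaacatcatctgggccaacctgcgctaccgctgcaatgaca
ACAN probe at base 5998: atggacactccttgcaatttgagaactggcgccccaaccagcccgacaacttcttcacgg
COL11A1 probe at base 3727: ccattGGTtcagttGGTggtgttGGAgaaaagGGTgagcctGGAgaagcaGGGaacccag
COL11A1 probe at base 5281: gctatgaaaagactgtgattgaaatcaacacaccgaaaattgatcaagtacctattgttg
COL2A1 probe at base 216: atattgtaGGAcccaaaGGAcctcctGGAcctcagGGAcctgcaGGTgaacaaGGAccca

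Levels are log2 processed signals minus the 75th percentile of the array, taken over the 1765 probes that were well above background throughout the series. Every difference is deep zone minus transient cartilage, on that log2 scale. That percentile was an intensity of 891 on the deep-zone array, against 4270 on the transient cartilage array. Detection differed strongly between the arrays: 10.8% of the probes (4729) were well above background on the deep-zone array, against 44.6% (19445) on the transient cartilage array. Signal well above background reached down to -6.86 on the deep-zone array and to -8.98 on the transient cartilage array. Where several probes of a gene were measured, the gene's level is that of the probe with the highest mean over the arrays. The scanner software's own error of a difference had a median of 0.22, which covers the spot and not the animal, the dissection or the amplification. With 1 array a tissue there is no replicate check and no test, and differences are given by their size.

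Among the genes measured on both arrays, 438 had a level in the deep zone at least 4-fold above that in transient cartilage and 152 one at least 4-fold below it, which is 32.6% and 11.3% of the 1344. The other 754 lay within 4-fold. The median difference was 1.12, and the differences ran between -7.60 for the imprinted growth-related RNA H19 and 11.32 for the metalloproteinase inhibitor TIMP2. The share of higher genes among those past 4-fold was 74.2%. It depended on the scaling, at 48.5% when the percentile was taken over the probes well above background on these 2 arrays, 89.0% on the mean of ubiquitous genes, 94.0% after quantile normalization and 98.3% on the percentile of all probes. It was 84.8% with another background correction (normexp), 63.0% in the authors' deposited values, and 49.1% when all positive and significant signals were admitted. Over the scalings to a percentile or a mean, all differences moved together by -1.05 to 3.12. A difference between -3.12 and 1.05 therefore turned its sign under at least 1 of them, which applied to 565 of the genes. The other 691 genes were higher and 88 lower under each of these scalings.

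**Figure D1:**
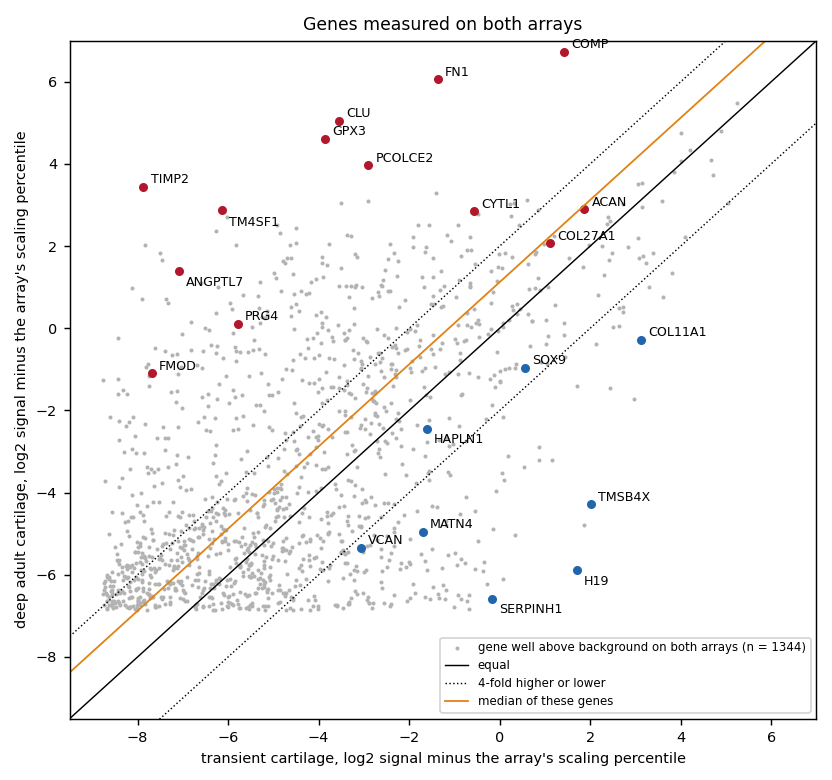
Each point is 1 of the 1344 genes well above background on both arrays, with its log2 signal minus the array's scaling percentile in transient cartilage on the x axis and in the deep zone on the y axis. The orange line marks the median difference of 1.12, the dotted lines a 4-fold difference. TIMP2 stands farthest above the line of equality at 11.32, and H19 farthest below it at -7.60.

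Detection on 1 array alone was far from even. On the deep-zone array alone, 342 genes were well above background, which is 2.5% of the named genes, against 4918 genes (35.9%) on the transient cartilage array alone. For such genes only a bound can be given: the bright value set against the dimmest detected signal of the other array, or against the gene's own dim value where that is higher. The deep-zone array's lowest such signal lay 2.12 above that of the transient cartilage array, so all 342 bounds exceed 4-fold by construction, and their number is no result. Of the 4918 genes of the other kind, 2072 were at least 4-fold lower in the deep zone by this bound, and 1274 gave no fold. The 2072 became 1275 on the mean of ubiquitous genes, 442 with normexp, 349 after quantile normalization and 336 with the percentile of all probes. Of the 342 genes, 103 were well above background on none of the other 4 arrays of the series, and 77 on both other adult arrays. Of the 4918 genes, 2847 were well above background on neither other adult array, and 2859 on both interzone arrays.

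COMP, which binds collagen fibrils, was the brightest gene of the deep-zone array. It had a level of 6.73 in the deep zone, against 1.42 in transient cartilage, a 39.8-fold difference. Its probe at base 1549 gave a larger difference (7.41) than the probe at base 2198 (5.32). On the other arrays COMP had levels of 1.88 in the middle zone, 2.71 in the superficial zone, -1.69 in the outer interzone and -2.44 in the intermediate interzone, so the deep zone was the highest of the 6 arrays.

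The collagens of the cartilage fibril were lower in the deep zone. Of the 8 cartilage collagens on the array, 2 were measured on both arrays, 5 on the transient cartilage array alone and 1 on neither. The share on the transient cartilage array alone was 35.9% over all named genes. COL2A1, the chain of the main fibril, had no probe well above background in the deep zone, against a level of 5.42 in transient cartilage, which makes it at least 4992-fold lower. This was the largest bound in that direction. COL9A2 and COL9A3, chains of the collagen IX that decorates the fibril, had levels of 5.35 and 4.80 in transient cartilage and were at least 4746-fold and 3246-fold lower in the deep zone. COL9A1, another chain of collagen IX, was at least 41.5-fold lower, and COL11A2, a chain of collagen XI, at least 69.8-fold lower. COL2A1 and COL9A2 were also not well above background on the middle and superficial adult arrays, while both were measured on the outer interzone (1.68 and 3.06) and the intermediate interzone (0.97 and 2.67). Fewer cells that make a transcript and less of it in each cell cannot be told apart in these samples.

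COL11A1 was the one chain of that fibril measured on both arrays. It had a level of -0.28 in the deep zone, against 3.13 in transient cartilage, a difference of -3.41 or 10.6-fold. The probe at base 5281 gave -3.15. The other 3 probes, at bases 3727, 6200 and 6852, were well above background on the transient cartilage array alone. COL27A1, a fibrillar collagen of developing cartilage, had 2.07 in the deep zone and 1.11 in transient cartilage, a difference of 0.95 that turned its sign with the percentile over the probes of these 2 arrays. COL10A1, the collagen of hypertrophic chondrocytes, was above background on neither array; it is named because it was the only undetected member.

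**Figure D2:**
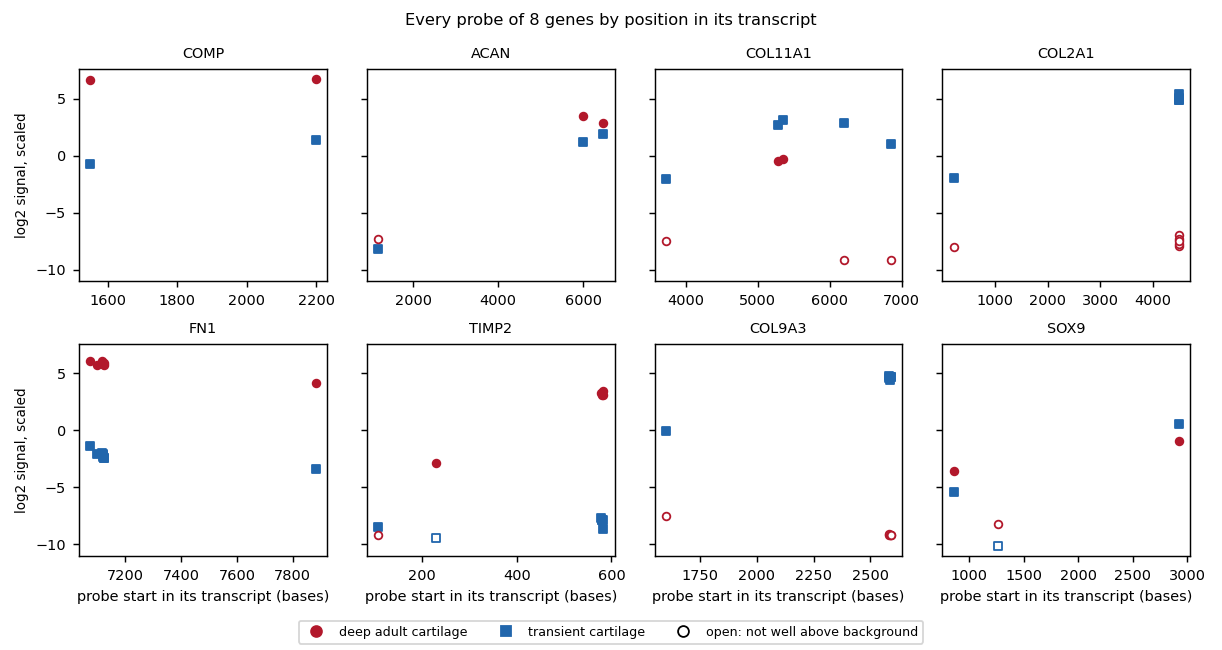
Each panel shows every probe of 1 gene, with its start in the target transcript in bases on the x axis and its scaled log2 signal on the y axis; circles are the deep zone, squares transient cartilage, and open symbols probes not well above background. All 6 COL2A1 probes are open in the deep zone and filled in transient cartilage, and the COMP, FN1 and TIMP2 circles lie above the squares at the measured probes.

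The cartilage proteoglycans, link proteins and hyaluronan synthase went neither way as a group. Of 9 genes on the array, 6 were measured on both arrays; 3 of them were at least 2-fold higher in the deep zone, 1 at least 2-fold lower and 2 within 2-fold, where the shares over all measured genes were 52.4% higher and 20.9% lower by that margin. Their median difference of 0.39 (-0.65 to 3.52 under the alternatives) lay 0.73 below that of all measured genes. ACAN, the core protein that holds water in cartilage, had 2.90 in the deep zone and 1.87 in transient cartilage, 2.04-fold, and the sign turned to -0.02 with the percentile over the probes of these 2 arrays. The ACAN probe at base 5998 gave a difference of 2.35, and its probe at base 1178 was not well above background in the deep zone. HAPLN1, the link protein that ties aggrecan to hyaluronan, differed by -0.83, with its other probe at -3.37, and VCAN, the versican of embryonic mesenchyme, by -2.27; both turned their sign with the percentile of all probes, HAPLN1 also on the mean of ubiquitous genes and VCAN also after quantile normalization. HSPG2, the perlecan of the pericellular matrix, was well above background on the transient cartilage array alone and at least 16.1-fold lower in the deep zone.

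PRG4, the lubricin of the joint surface, was measured by 5 probes that gave differences of 5.68 to 5.93. It had 0.11 in the deep zone, against -5.78 in transient cartilage, 59.5-fold. Both values lay below those of the superficial zone (5.02) and of the outer (3.37) and intermediate (3.86) interzones, and the middle zone had -3.27.

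The small leucine-rich proteoglycans, which bind collagen fibrils and set their spacing, differed in both directions between these 2 tissues. Of 12 on the array, 4 were measured on both, of which 3 were at least 2-fold higher in the deep zone and none lower. Over all measured genes, 52.4% were higher by that margin. Another 2 were well above background on the deep-zone array alone, 3 on the transient cartilage array alone and 3 on neither. Over all named genes, 2.5% were on the deep-zone array alone and 35.9% on the transient cartilage array alone. FMOD (fibromodulin) had -1.09 in the deep zone, against -7.69 in transient cartilage, 96.8-fold. Its 5 measured probes, which overlap, gave 6.25 to 7.25, and its probe at base 2762 was well above background in transient cartilage alone. OGN (osteoglycin) had -1.23 in the deep zone and -4.80 in transient cartilage. BGN (biglycan) had -3.51 in the deep zone and -6.04 in transient cartilage. The interzone arrays did not follow transient cartilage here: OGN had -0.47 in the outer and 0.11 in the intermediate interzone, above the deep zone, and BGN had -3.49 in the outer and -3.53 in the intermediate interzone, close to the deep zone. OMD (osteomodulin) was at least 1609-fold higher in the deep zone, where it had 1.67, and DCN (decorin) at least 25.2-fold higher; each rests on 1 probe. EPYC, the epiphycan of growth cartilage, was at least 2092-fold lower in the deep zone, against 4.17 in transient cartilage, and LUM (lumican) at least 653-fold lower, against 2.49. PRELP, a heparin-binding member, differed by 0.97, which turned its sign with the percentile over the probes of these 2 arrays.

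**Figure D3:**
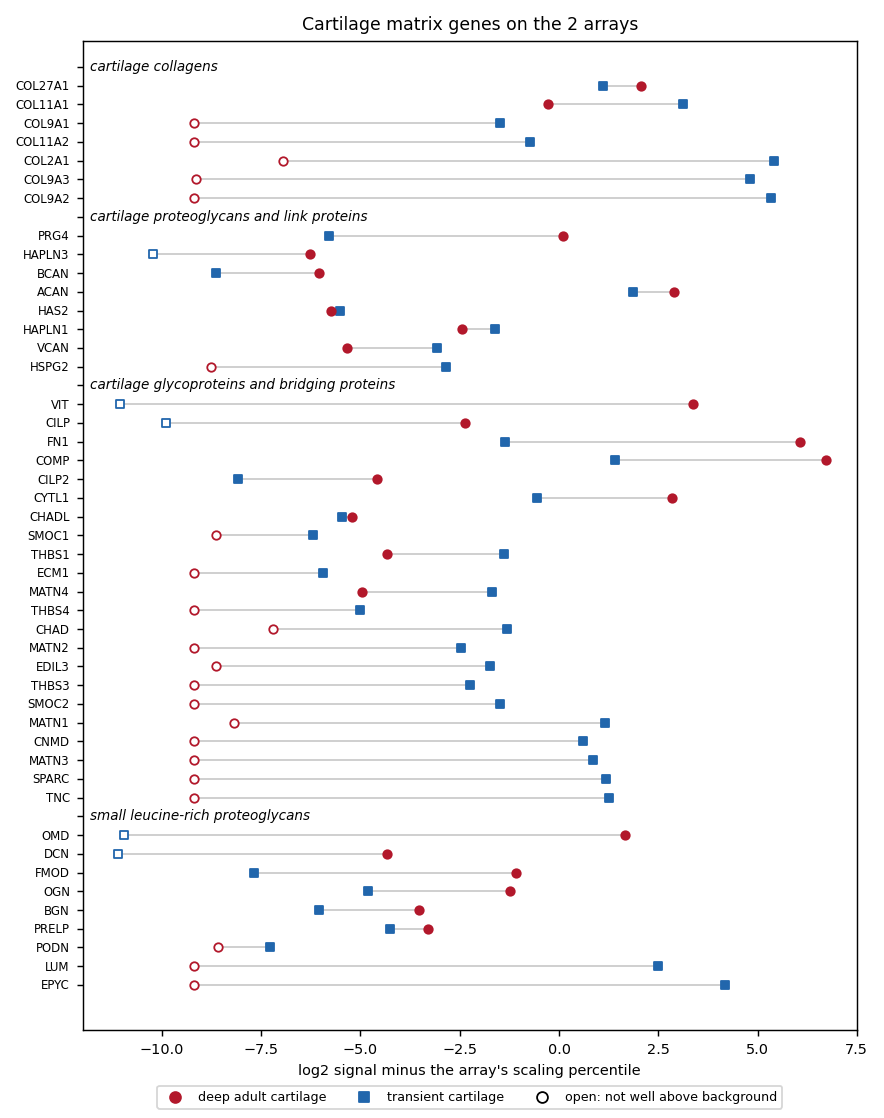
Each row is 1 matrix gene well above background on at least 1 of the arrays; the circle is its scaled log2 signal in the deep zone and the square that in transient cartilage, open where it was not well above background. FMOD, OMD and FN1 have their circles far to the right of their squares, while COL2A1, COL9A2 and EPYC have open circles on the far left.

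Bridging and other matrix glycoproteins differed in both directions. Of 24 on the array, 7 were measured on both. In the deep zone 4 were at least 2-fold higher, 2 at least 2-fold lower and 1 was within 2-fold. Over all measured genes, 52.4% were higher and 20.9% lower by that margin. A further 13 were well above background on the transient cartilage array alone, 11 of them at least 2-fold lower by the bound. On the deep-zone array alone were 2. Over all named genes these shares were 35.9% and 2.5%.

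FN1, the fibronectin that integrins bind, had the largest difference among those 7. It had a level of 6.06 in the deep zone, against -1.37 in transient cartilage, 172.5-fold, and its measured probes gave differences of 7.43 to 8.29. Its levels were 3.49 in the middle zone, 4.52 in the superficial zone, 0.64 in the outer interzone and 0.87 in the intermediate interzone, so transient cartilage was the lowest of the 6 arrays. CYTL1, a secreted protein of chondrocytes, had 2.84 in the deep zone and -0.56 in transient cartilage, and 5 probes gave 3.41 to 3.64. VIT (vitrin), a secreted matrix protein with von Willebrand factor domains, had 3.38 in the deep zone and was not well above background on any of the other 5 arrays; it was at least 5251-fold higher than in transient cartilage. CILP, the cartilage intermediate layer protein, was at least 98.0-fold higher in the deep zone, and its relative CILP2 was 11.4-fold higher.

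The 4 matrilins, which form filaments between collagen and proteoglycan, were lower in the deep zone. The bounds were at least 259-fold for MATN1, at least 20.95-fold for MATN2 and at least 210-fold for MATN3, while MATN4, measured on both arrays, had -4.95 in the deep zone against -1.69 in transient cartilage, 9.56-fold. CNMD (chondromodulin, an inhibitor of vessel growth) was at least 178-fold lower, SPARC (osteonectin) at least 262-fold lower and CHAD (chondroadherin) at least 46.9-fold lower. TNC, the tenascin of embryonic matrix, was at least 281-fold lower than the 1.27 of transient cartilage; it was well above background on the other adult arrays, with -0.15 in the middle zone and 1.22 in the superficial zone. THBS1 (thrombospondin 1) had a difference of -2.96, which turned its sign with the percentile of all probes.

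Proteins known as products of mature cartilage were mostly higher in the deep zone. This list was drawn up with earlier results of these data known, so its direction is no independent evidence. Of 20 genes on the array, 10 were measured on both, of which 8 were at least 2-fold higher and 2 at least 2-fold lower. Among all measured genes these shares were 52.4% and 20.9%. On the deep-zone array alone 1 was well above background, and 5 were so on the transient cartilage array alone. Among all named genes these shares were 2.5% and 35.9%. The median difference of the 10 was 5.35, which lay 4.23 above that of all measured genes, and 3.11 to 4.28 above it under the 10 alternative processings. CLU, the extracellular chaperone clusterin, had 5.05 in the deep zone, against -3.55 in transient cartilage, 388.6-fold. TM4SF1, a small membrane protein, had 2.88 in the deep zone and -6.14 in transient cartilage, a difference of 9.02; its probe at base 1538 was well above background in transient cartilage alone. ANGPTL7, a secreted angiopoietin-like protein, had 1.39 in the deep zone and -7.09 in transient cartilage. CLU and ANGPTL7 rest on 1 probe each. CLU, TM4SF1 and ANGPTL7 had 1.54 or more on the middle and superficial adult arrays, and -2.30 or less on the interzone arrays.

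PCOLCE2, an enhancer of procollagen processing, had 3.96 in the deep zone and -2.90 in transient cartilage, 116.5-fold. CCN2, the connective tissue growth factor, had 3.36 in the deep zone, with none of its 5 probes detected well above background in the embryonic sample, and was at least 5177-fold higher. Those 5 probes start at bases 770 to 777, so they read 1 stretch. MIA, a small protein that chondrocytes secrete, was at least 147-fold lower in the deep zone. FIBIN, the fin bud initiation factor homolog, had 0.05 in the deep zone against 2.63 in transient cartilage, a difference of -2.58 that turned to 0.54 with the percentile of all probes.

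The 3 protease inhibitors measured on both arrays were higher in the deep zone. TIMP2, an inhibitor of metalloproteinases, had 3.44 in the deep zone, against -7.87 in transient cartilage. This was the largest difference of any gene measured on both arrays, at 2549-fold. Its 5 measured probes start at bases 579 to 583, so they read 1 stretch, and gave 10.98 to 11.71. Of its other probes, that at base 230 was well above background in the deep zone alone (-2.85) and that nearest the start of the transcript in transient cartilage alone (-8.54). TIMP2 was not well above background in the middle zone, and the superficial zone (-2.90), the outer interzone (-1.71) and the intermediate interzone (-2.67) lay between the 2 tissues. TIMP3, the inhibitor held in the matrix, had 2.26 in the deep zone and -3.38 in transient cartilage, 49.9-fold. SERPINE2, an inhibitor of serine proteases, was 29.8-fold higher. Of the 30 proteases and inhibitors on the array, 5 were measured on both and 12 on the transient cartilage array alone. Of the 5, 3 were at least 2-fold higher, 1 at least 2-fold lower and 1 within 2-fold. These counts are near the 52.4% higher and 20.9% lower of all measured genes, and the 12 of 30 near the 35.9% of all named genes. The 12 included the membrane metalloproteinase MMP14 (at least 126-fold lower in the deep zone) and the serine protease HTRA1 (at least 63.3-fold lower). Both were well above background elsewhere in adult cartilage, MMP14 with 0.567 in the middle zone and HTRA1 with -0.393 in the superficial zone. The inhibitor CST3 (cystatin C) was also among the 12 and at least 9.19-fold lower, a side held under 8 of 9 alternatives. The median of the 5 was 3.78 above that of all measured genes, and it fell below it when all positive and significant signals were admitted.

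Genes of the collagen-making machinery were often detected in transient cartilage alone, as were 29 of 51 ubiquitous genes and 35.9% of all named genes. Of 26 on the array, 7 were measured on both (3 at least 2-fold higher, 2 at least 2-fold lower). Among all measured genes 52.4% were higher and 20.9% lower by that margin. Another 17 were on the transient cartilage array alone, 14 of these at least 2-fold lower by the bound. SERPINH1, the collagen chaperone HSP47, had -6.59 in the deep zone and -0.18 in transient cartilage, 85.4-fold lower. CRTAP, a partner of collagen prolyl 3-hydroxylase, was at least 163-fold lower. PLOD2, which hydroxylates lysines for crosslinks, was 4.92-fold higher. Its intensity was 897 in the deep zone and 874 in transient cartilage, so that fold comes almost wholly from the scaling. The median of the 7 was 1.19 below that of all measured genes, and it stayed below it under the 10 alternative processings.

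Of 22 other collagens on the array, 4 were measured on both (1 at least 2-fold higher, 1 at least 2-fold lower) and 10 on the transient cartilage array alone. Among all measured genes 52.4% were higher and 20.9% lower by that margin, and 35.9% of all named genes were on the transient cartilage array alone. COL1A2 and COL1A1, the chains of collagen I, had 4.56 and 2.26 in transient cartilage and were at least 2755-fold and 559-fold lower in the deep zone. COL3A1, the fibrillar collagen of loose tissue, was at least 308-fold lower. COL16A1, a collagen associated with fibrils, had -5.03 in the deep zone and 0.35 in transient cartilage, 41.6-fold lower. The chains of collagen I made up nearly all of the bone cell marker signal in transient cartilage: the summed linear level of 9 such markers was 0.0647 in the deep zone (2 above background) and 28.5 in transient cartilage (4 above background). The part of bone-forming or other collagen I-making cells in this was not tested.

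Among the regulators of chondrocyte differentiation, 3 of 24 were measured on both arrays and 14 on the transient cartilage array alone, with bounds that passed 2-fold for 6. Detection on the transient cartilage array alone held for 35.9% of all named genes and 29 of 51 ubiquitous genes, so the 14 are no trait of these regulators. SOX9, the master regulator of chondrocytes, had -0.96 in the deep zone and 0.56 in transient cartilage, but its measured probes disagreed, with differences of -1.53 and 1.85, and the gene turned positive with the percentile of all probes (1.60) and over the mean of its probes (0.16). The growth plate receptors FGFR3 and PTH1R were at least 10.2-fold and 9.90-fold lower in the deep zone. DLX5, a homeobox factor of cartilage and bone, was at least 27.03-fold lower. RUNX2, the bone and hypertrophy factor, was at least 2.66-fold lower, and IHH (Indian hedgehog) at least 1.42-fold lower. Small bounds did not survive each alternative: the lower side held under 8 of 9 for FGFR3, 9 of 10 for PTH1R, 6 of 9 for RUNX2 and 5 of 10 for IHH. Of 12 genes of hypertrophy and mineralisation, 6 were on neither array and 5 on the transient cartilage array alone, so this stage could hardly be compared.

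The 3 largest bounds in favour of the deep zone were those of the acute-phase names SAA1 and SAA and of CHIT1. SAA1, the acute-phase protein serum amyloid A, had 5.99 in the deep zone and no probe well above background in transient cartilage, which makes it at least 32120-fold higher. A further probe set named SAA gave 4.47; the family has near-identical copies, so which copy was measured is uncertain. SAA1 was high on the middle (7.36) and superficial (5.97) adult arrays and not well above background on either interzone array. CHIT1, the chitinase of activated macrophages in human tissue, had 4.07 in the deep zone and was at least 8496-fold higher, again with high values in the middle (4.11) and superficial (3.22) zones.

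NOS2, the inducible nitric oxide synthase, had 2.03 in the deep zone and was at least 2062-fold higher. NFKBIA, the NF-kappaB inhibitor that NF-kappaB itself induces, was at least 1490-fold higher, and CFB, a factor of the alternative complement pathway, at least 1444-fold higher. In the other direction, PTGS2 (cyclooxygenase 2) had a difference of -2.01, with its other measured probe at 1.57, and IL11, a cytokine of the interleukin 6 family, of -2.94, and both turned positive with the percentile of all probes and after quantile normalization. Of the 37 genes on the inflammation list, 4 were measured on both arrays, 6 on the deep-zone array alone, 7 on the transient cartilage array alone and 19 on neither. All named genes had shares of 2.5% on the deep-zone array alone and 35.9% on the transient cartilage array alone. Of the 7, 4 were at least 2-fold lower in the deep zone by the bound, among them the complement protease C1R. The bound of C1R was 7.04-fold, a side held under 8 of 10 alternatives.

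Leukocyte markers summed to 28.1 in the deep zone and 29.9 in transient cartilage, and this sum was almost wholly PTPRC (the leukocyte antigen CD45), whose probes near the end of the transcript were bright on all 6 arrays while those nearer its start were at or near background. Without PTPRC the sums of the leukocyte markers were 0.0521 in the deep zone and 0.126 in transient cartilage, with 3 of 15 markers well above background in the deep zone and 7 in transient cartilage. The summed blood and endothelial markers were 0.0966 in the deep zone and 0.0695 in transient cartilage, with 4 of 13 above background on each array. Muscle markers summed to 0.0912 in the deep zone and 0.520 in transient cartilage, with 3 of 16 above background in the deep zone and 10 in transient cartilage. Nerve and glia markers summed to 0.0951 in the deep zone and 0.846 in transient cartilage, with 2 of 13 above background in the deep zone and 6 in transient cartilage. The adipocyte and synovial markers summed to 1.09 in the deep zone and 0.0736 in transient cartilage, with PRG4 as the only one above background in the deep zone. Of 10 epithelial markers, 1 was above background in the deep zone and none in transient cartilage. The part of these cells in the differences was not tested.

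Several immediate-early and stress genes were detected in the deep zone alone. Of 32 on the array, 9 were measured on both, with 5 at least 2-fold higher and 2 at least 2-fold lower, near the 52.4% and 20.9% of all measured genes. Another 5 were well above background on the deep-zone array alone, where the share over all named genes was 2.5%. On the transient cartilage array alone were 8, where that share was 35.9%. FOSL2, a subunit of the AP-1 transcription factor, had 2.06 in the deep zone and was at least 2107-fold higher. FOS, another AP-1 subunit, had -2.15 in the deep zone and -8.61 in transient cartilage, 87.9-fold. The AP-1 subunit JUN went the other way, with -1.42 in the deep zone and -0.10 in transient cartilage. Its difference of -1.32 kept its sign under 9 of 10 alternatives. CDKN1A, the cell cycle inhibitor p21, was at least 589-fold higher, and GADD45A, a stress-induced growth arrest gene, at least 466-fold higher. ATF4, the factor of the integrated stress response, had -6.33 in the deep zone and -2.61 in transient cartilage, 13.2-fold lower. DDIT3, on the same list, was at least 10.5-fold lower, a side held under 8 of 9 alternatives. The median of the 9 was 0.15 above that of all measured genes and was on the same side in 6 of the 10 alternative processings.

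**Figure D4:**
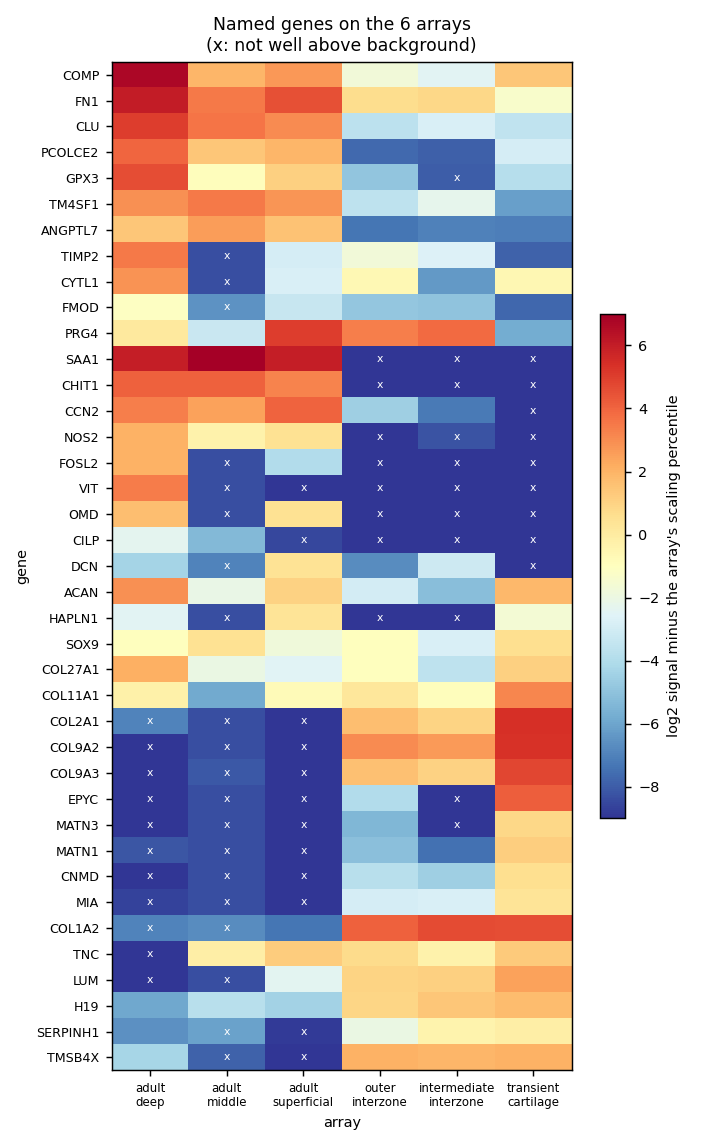
Rows are named genes and columns the 6 arrays of the series; colour is the scaled log2 signal and a cross marks a value not well above background. SAA1 and CHIT1 are bright on the 3 adult arrays and crossed on the 3 embryonic ones, while VIT is bright on the deep-zone array alone.

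Receptors that hold chondrocytes to their matrix included some large differences. SDC4, a heparan sulfate-bearing syndecan, had 0.70 in the deep zone and -7.36 in transient cartilage, 268.3-fold. ITGA5, the chain of the fibronectin receptor, was 77.5-fold higher, ITGAV, the alpha-V chain, 10.1-fold higher and PTK2, the focal adhesion kinase, 20.8-fold higher. SDC3, another syndecan, was at least 360-fold higher. ITGB1, the beta chain that pairs with ITGA5, was at least 59.2-fold lower in the deep zone, and GPC3, a glypican that binds growth factors, at least 450-fold lower. Of 28 such genes, 9 were measured on both arrays, with 5 at least 2-fold higher and 2 at least 2-fold lower. These counts are near the 52.4% and 20.9% of all measured genes. Another 11 were on the transient cartilage array alone, against 35.9% of all named genes.

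Imprinted growth genes and the insulin-like growth factor axis differed in both directions. H19 had -5.89 in the deep zone, against 1.70 in transient cartilage, 193-fold lower, the most negative difference of any gene measured on both arrays. It was low on all adult arrays (-3.78 in the middle and -4.42 in the superficial zone) and high on both interzone arrays (0.93 and 1.41). MEST, an imprinted mesoderm gene, was at least 171-fold lower in the deep zone and CDKN1C, an imprinted cell cycle inhibitor, at least 135-fold lower. IGFBP7, an insulin-like growth factor binding protein, was at least 1059-fold higher, GRB10, an adaptor that dampens that receptor, at least 473-fold higher, and the growth hormone receptor GHR 16.5-fold higher. Of 30 genes on this list, 3 were measured on both arrays, 3 on the deep-zone array alone and 17 on the transient cartilage array alone. Over all named genes, 2.5% were on the deep-zone array alone and 35.9% on the transient cartilage array alone.

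Ribosomal proteins were the group with the most measured members. Of 44 on the array, 32 were measured on both, and none was at least 2-fold higher in the deep zone, 15 were at least 2-fold lower and 17 within 2-fold. Among all measured genes 52.4% were higher and 20.9% lower by that margin. The median of the 32 was -0.84 (-1.89 to 2.28 under the alternatives). It lay 1.96 below that of all measured genes, and 1.47 to 4.33 below it under the 10 alternative processings. Ubiquitous genes, some of them ribosomal, lay 1.93 below it, so this distance is not particular to ribosomal proteins. RPL35A, a protein of the large subunit, stood highest with a difference of 0.93, which turned its sign with the percentile over the probes of these 2 arrays. RPL3, another protein of the large subunit, was well above background on the other 5 arrays and not on the deep-zone array, at least 314-fold lower than in transient cartilage.

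Genes of energy use and growth were often detected in transient cartilage alone, as were 29 of 51 ubiquitous genes and 35.9% of all named genes. Of 35 genes of glycolysis and hypoxia, 9 were measured on both arrays and 16 on the transient cartilage array alone. Of the 9, 1 was at least 2-fold higher and 5 at least 2-fold lower. The shares over all measured genes were 52.4% higher and 20.9% lower by that margin. The median of the 9 was -1.23 (-2.84 to 1.89 under the alternatives), and 2.35 below that of all measured genes. The glycolytic enzymes TPI1 and GPI were at least 156-fold and 146-fold lower in the deep zone, while the glucose transporter SLC2A1 was 6.08-fold higher, with probes between -1.16 and 2.61. Of 55 genes of the cell cycle and DNA replication, 45 were on the transient cartilage array alone, 35 of them at least 2-fold lower by the bound, and none on the deep-zone array alone. HMGB2, a chromatin protein of dividing cells, was at least 297-fold lower, and MCM7, part of the replicative helicase, at least 130-fold lower. Both were well above background in the superficial adult zone (0.817 and -1.555), and HMGB2 also in the middle zone (-1.757). TYMS, which makes thymidylate for DNA, was 11.8-fold higher in the deep zone, with probes from 2.09 to 3.56.

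Ubiquitous genes were also detected less on the deep-zone array. Of 51 such genes on the array, 19 were well above background in the deep zone and 48 in transient cartilage. Those 18 that were measured on both had a median difference of -0.81 (-2.34 to 2.32 under the alternatives), which is 1.93 below that of all measured genes. The low detection of a list on the deep-zone array is therefore read beside the detection of ubiquitous genes on the same array.

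**Figure D5:**
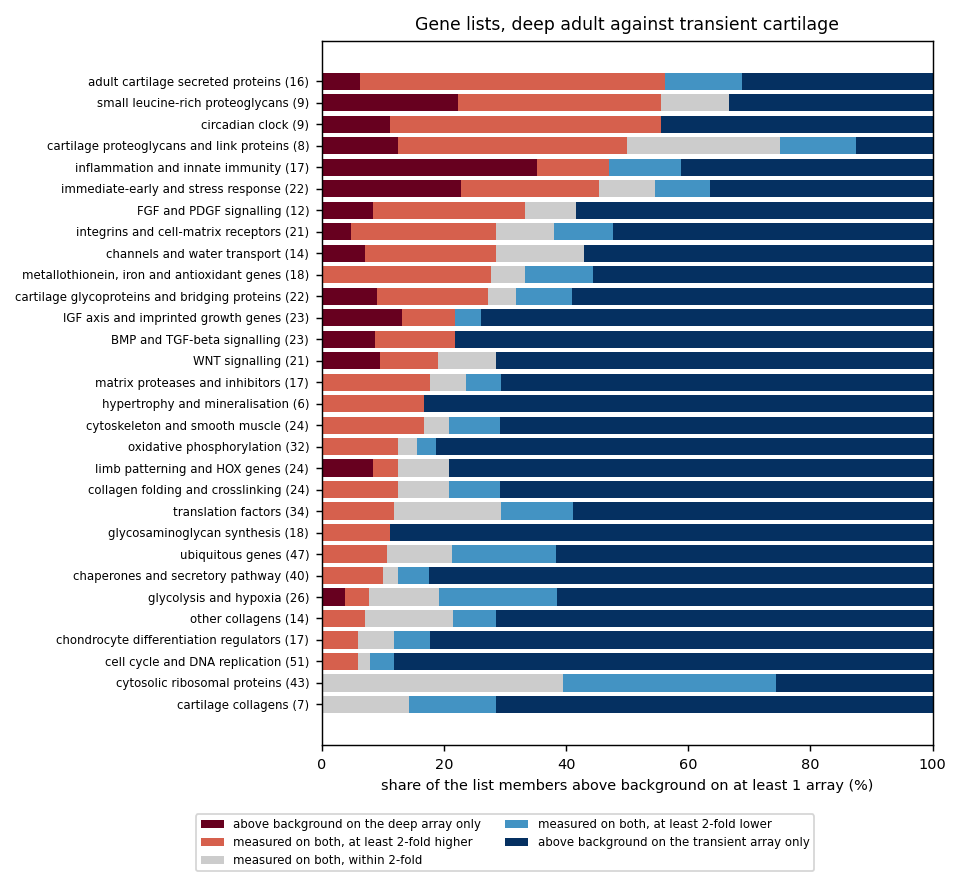
Bars give, for each gene list, the share of members that fall in each class, out of the members well above background on at least 1 array (number in brackets). Dark red is the deep-zone array alone, light red at least 2-fold higher in the deep zone, grey within 2-fold and light blue at least 2-fold lower; the red and blue shares of genes measured on both arrays move with the scaling. Lists at the top hold the largest share of members higher in the deep zone or seen there alone, and dark blue marks members well above background in transient cartilage alone, 45 of 51 for the cell cycle list.

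Among the remaining large differences, several rest on single probes or on probes that differ. MGAT2, an enzyme of N-glycan synthesis, had 1.83 in the deep zone and -7.50 in transient cartilage, and its other probe gave 8.45. LIMS1, an adaptor at integrin contacts, had a difference of 9.11, with its probes running from 5.66 to 9.11. GPX3, the secreted glutathione peroxidase, had 4.62 in the deep zone and -3.86 in transient cartilage, 357-fold. FKBP5, a target of glucocorticoids, was at least 2855-fold higher, and GSTA1, a glutathione transferase with close paralogs that probes may not separate, at least 2521-fold higher. TMSB4X, the actin-binding thymosin beta 4, had -4.28 in the deep zone and 2.02 in transient cartilage, and its measured probes gave -7.13 to -5.99. PTN (pleiotrophin) and CTHRC1, secreted growth and matrix factors, were at least 756-fold and 933-fold lower in the deep zone.

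Agreement between probes can be read only where they read different stretches. Of the 307 genes with several measured probes, 165 had probes that overlap in a single stretch (joined by a shared run of at least 20 bases), which bear little on each other. That holds for the measured probes of PRG4, CYTL1, FMOD, TM4SF1 and TIMP2. The other 142 genes had measured probes in several stretches, and 116 of them had the brightest probe of every stretch on the same side of 0. The standard deviation between stretches had a median of 0.62 and a 90th percentile of 2.61. Of the 75 of these genes past 4-fold, 66 had all stretches on the same side, against 50 of the 67 within 4-fold.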

How the data were processed

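Gene expression was measured on 6 Agilent 1-colour arrays of horse cartilage, 1 a group. Per the file headers, the authors scanned the arrays and extracted spot intensities with Agilent Feature Extraction 10.7.3.1, whose processed signal is background-subtracted. The authors' deposited value table holds each array's linear signal as a ratio to that array's median, and served as an alternative. Here the deposited intensities were taken to log2 and the 75th percentile of each array was subtracted, over probes well above background on all 6 arrays. Control spots and outlier spots were left out, and spots of a probe averaged. Probes were named from the array annotation in the files and a RefSeq gene table: 19551 of 43603 probes stayed unnamed. A gene's probe is that with the highest mean level over the arrays.

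Members and lists were chosen with earlier results of these data known. With 1 array a group, no test was run; differences were counted at 4-fold, and at 2-fold for members of the 37 gene lists. The text names a selection from the following: the 15 largest differences a direction among genes measured on both arrays whose probes go the same way, the 10 largest bounds a direction, the 4 cartilage markers, members of the cartilage lists measured on at least 1 array, and up to 5 members a direction of each other list. Genes known only by a locus number are not named. The alternatives were other scalings, quantile normalization, normexp (offset 50), the authors' values, the mean over probes, 2 other filters on dim probes and other fold thresholds. Python 3.11.15, pandas 2.3.3, NumPy 2.4.6, R 4.3.3 and limma 3.58.1 were used, and the counting was tested on simulated data. Arrays carry no read depth; their number, 1 a group, limits the precision.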

Additional observations from a re-analysis of the deposited data

How the results depend on the processing

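The counts followed the scaling. Genes at least 4-fold higher and lower in the deep zone numbered 1084 and 19 with the percentile of all probes (median difference 4.25), 267 and 284 with the percentile over probes well above background on these 2 arrays (0.077), 722 and 89 on the mean of 18 ubiquitous genes (2.22), and 932 and 59 after quantile normalization (3.34). Normexp gave 328 and 59 (1.45), the authors' values a median of 0.67, all positive and significant signals 1032 and 1068 (0.42), and a floor of 2 times the lowest signal 350 and 83 (1.31). At 2-fold the counts were 704 and 281, and at 8-fold 268 and 91. Lists with a median above that of all genes numbered 8, and 3 with all positive and significant signals. Bounds past 4-fold, an alternative added after seeing the data, fell to 336 lower with the percentile of all probes, 1275 lower on ubiquitous genes, 349 lower after quantile normalization, and 144 higher and 442 lower with normexp. They came to 175 higher with the percentile over these 2 arrays, 982 with all positive and significant signals and 226 with the floor. Of 1276 differences of named genes under the alternatives, 526 stayed within their error, 738 moved and 12 reversed. With the percentile of all probes the reversed differences were FIBIN 0.54, HBB 0.96, IL11 0.19, PTGS2 1.12, THBS1 0.16 and VCAN 0.85. After quantile normalization they were HBB 1.48, IL11 0.034, PTGS2 1.07 and VCAN 0.70, with normexp HBB 0.23, and over the mean of a gene's probes HSPA9 -0.50. The percentile of all probes moves all differences by 3.12, more than the size of those it turned. The measured probes of HSPA9 disagree (-1.76 to 2.68). For quantile normalization and normexp the cause was not tested. No paired analysis was possible because each group is 1 array. The 10.8% of probes well above background in the deep zone limits what can be compared there.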

Other observations

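Several signalling and patterning genes were not described above. Of 38 genes of BMP and TGF-beta signalling on the array, 3 were measured on both arrays, all at least 2-fold higher in the deep zone. Over all measured genes that share was 52.4%. Another 2 were on the deep-zone array alone and 18 on the transient cartilage array alone, against 2.5% and 35.9% of all named genes. SMAD7, an inhibitor of TGF-beta signalling, had -4.93 in the deep zone and -8.23 in transient cartilage, and the BMP receptor BMPR1A was at least 17.2-fold higher. TGFBI, a matrix protein that TGF-beta induces, was at least 187-fold lower. Of 35 WNT genes, 2 of the 4 measured on both were at least 2-fold higher, near the 52.4% of all measured genes, and 15 were on the transient cartilage array alone, 9 of them at least 2-fold lower by the bound. The secreted WNT inhibitor SFRP4 was at least 15.6-fold higher, while its relatives SFRP1 and SFRP2 were at least 17.95-fold and 99.8-fold lower. Of 35 limb patterning and HOX genes, 19 were on the transient cartilage array alone, against 35.9% of all named genes. Among them, HOXC9 was at least 85.9-fold and HOXA10 at least 48.5-fold lower in the deep zone.

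Genes of respiration, the clock and cell communication included higher members. Of 34 genes of oxidative phosphorylation, 6 were measured on both arrays and 26 on the transient cartilage array alone. Over all named genes the latter share was 35.9%. At least 2-fold higher were 4 of the 6, where the share over all measured genes was 52.4%. The median of the 6 lay 0.22 above that of all measured genes, on the same side in 6 of the 10 alternative processings. UQCRC2, a core protein of complex III, had 0.79 in the deep zone and -2.66 in transient cartilage. ATP5F1B, the beta chain of ATP synthase, had 1.86 in the deep zone and 0.80 in transient cartilage. The intensity of ATP5F1B was 3240 in the deep zone and 7450 in transient cartilage, so it was higher only after the scaling. Of 16 circadian clock genes, the 4 measured on both were at least 2-fold higher, where the share over all measured genes was 52.4%. NR1D2 was at 4.75-fold, but its intensity was 51.6 in the deep zone and 52.1 in transient cartilage. The fold of NR1D2 therefore comes from the scaling. The clock repressor BHLHE40 was at least 219-fold higher, while the repressors CRY1 and CIART were at least 22.9-fold and 2.97-fold lower, 2 of the 4 clock genes on the transient cartilage array alone. GJA1, the gap junction protein connexin 43, was 8.68-fold higher. FGF18, a growth factor for chondrocytes, was well above background on the deep-zone array alone. Its intensity was 7.9 there and 7.8 in transient cartilage, so its bound of 4.47-fold comes from the scaling and is no result.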
